A study of Homo sapiens with 6 samples.

Results

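Genes that supply GDP-fucose and that place fucose on the core of N-glycans or directly on proteins were followed in HCT116 cells with and without doxycycline. Of the 10 genes taken as members by symbol (GMDS, GFUS, FCSK, FPGT, SLC35C1, FUT8, FUT10, POFUT1, POFUT2 and POFUT4), 8 were measured, out of 927 genes named on the array. Each measured member had 1 probe set, apart from POFUT1 with 3, which gives 10 member probe sets of 1259. No probe set was matched to FCSK or FUT10, and both are not analysed here.

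HCT116 is a colorectal cancer line with microsatellite instability, and the array is a focused chip for glycosylation genes. The 2 groups were ACVR2 WT +DOX/+Activin A and ACVR2 WT -DOX/+Activin A, with 3 arrays each. Both were cells made to express a gene on addition of doxycycline. By the titles that gene was ACVR2, the activin receptor; by the source labels it was TGFBR2, ACVR2 and AIM2 together. Both groups were given activin A, the ligand, so its own effect cannot be told apart from what both share. No cells without the inducible gene received doxycycline, so drug and receptor cannot be told apart. The labels give no dose, no time, no number of clones and no word on separate cultures, so p-values measure only the spread between these arrays, which may be technical.

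Fucose reaches a glycan only as GDP-fucose. Cells make most of it from GDP-mannose, which the dehydratase GMDS and then the epimerase and reductase GFUS convert. A salvage route uses free fucose, which the kinase FCSK phosphorylates and FPGT joins to GDP. SLC35C1 carries GDP-fucose into the Golgi, where FUT8 adds fucose to the innermost GlcNAc of N-glycans, the core fucose. POFUT1 and POFUT2 work in the endoplasmic reticulum and attach fucose to protein itself, POFUT1 on EGF-like repeats such as those of Notch receptors and POFUT2 on thrombospondin-type repeats. POFUT4, formerly FUT11, now also carries the name of a protein O-fucosyltransferase. HCT116 is known to carry a deletion inside GMDS and to make little GDP-fucose unless it is fed fucose. No source used here says where the GMDS probes lie relative to that deletion.

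Values are log2 expression from RMA, so a difference of 1 is a doubling. Probe sets differ in how strongly they bind, so the level of one gene is not set against that of another. Array medians lay between 7.61 and 7.65, lower quartiles between 6.85 and 6.89, and upper quartiles, which differed more, between 9.21 and 9.38. The titles say ACVR2 without naming ACVR2A or ACVR2B, and ACVR2A was taken here as the gene to be induced. The probe set of ACVR2A read 8.08 ± 0.07 in +DOX cells and 8.34 ± 0.32 in -DOX cells (SD, n = 3 each). It was not higher with doxycycline, the difference being -0.26 (SE 0.16; limma, adjusted p = 0.710). TGFBR2 was at -0.35 (SE 0.21; limma, adjusted p = 0.704), and no probe set was named AIM2. Without -DOX replicate 3, an array described below, ACVR2A was at -0.08 and TGFBR2 at -0.16. Whether the ACVR2A probes lie within the introduced sequence is unknown, so the groups are used as labelled. Cell types were checked with short lists of markers only. Of the 11 epithelial markers listed, MUC1 was the one measured. Its brightest probe set read 8.62 to 8.71 in +DOX cells and 8.73 to 8.89 in -DOX cells, so the cell type could hardly be checked on this chip. Of the 3 fibroblast markers measured, LUM and DCN lay under the lower quartile on all 6 arrays, and PDGFRB on 0. Of the endothelial and neural lists PECAM1 and NCAM1 were measured, which differed by -0.09 and -0.04. Both lay under the lower quartile on 0 arrays, so absence of these cell types is not shown by these markers. None of the 5 listed leukocyte markers was measured.

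Replicate 3 of the -DOX cells stood apart. It correlated with the other 5 arrays at 0.982 to 0.991 over all probe sets, whereas those 5 correlated with each other at 0.995 to 0.999. It was the lowest or the highest of the 6 arrays for 61.6% of all probe sets, and for 8 of the 10 member probe sets. Where leaving it out moved a value by over 1.5 times, the value without it is given too. It was not the only array to deviate. The array weights of limma, lower for arrays that fit less well, were 0.20 for it and 0.39 for -DOX replicate 2. The other arrays had weights from 1.28 to 3.36.

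No member passed the test between +DOX and -DOX cells. With limma, an adjusted p under 0.05 was reached by 0 of 10 member probe sets, beside 0% of all 1259. At an unadjusted p under 0.05 there was 1 member probe set, that of POFUT4, beside 7.78% (98) of all. The groups did not overlap for 2 member probe sets, POFUT4 and POFUT2, both higher in +DOX cells, beside 15.8% of all probe sets (7.55% higher and 8.26% lower). These shares in the members lie near those of the array as a whole. Taking 1 probe set per gene, 5 members had higher and 3 lower values in +DOX cells, beside 415 higher and 512 lower of all 927 named genes. The median difference of the members was 0.04, beside -0.01 over all named genes. Without -DOX replicate 3 it was 0.0016, beside -0.017 over all named genes. Counted by probe set, 5 of the 10 had higher and 5 lower values, beside 571 higher and 688 lower of all 1259. The median of the member probe sets was -0.02, beside -0.0081 over all probe sets. Without -DOX replicate 3 these medians were -0.0082 and -0.017. The plot of every member by array shows these values.

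**Figure D1:**
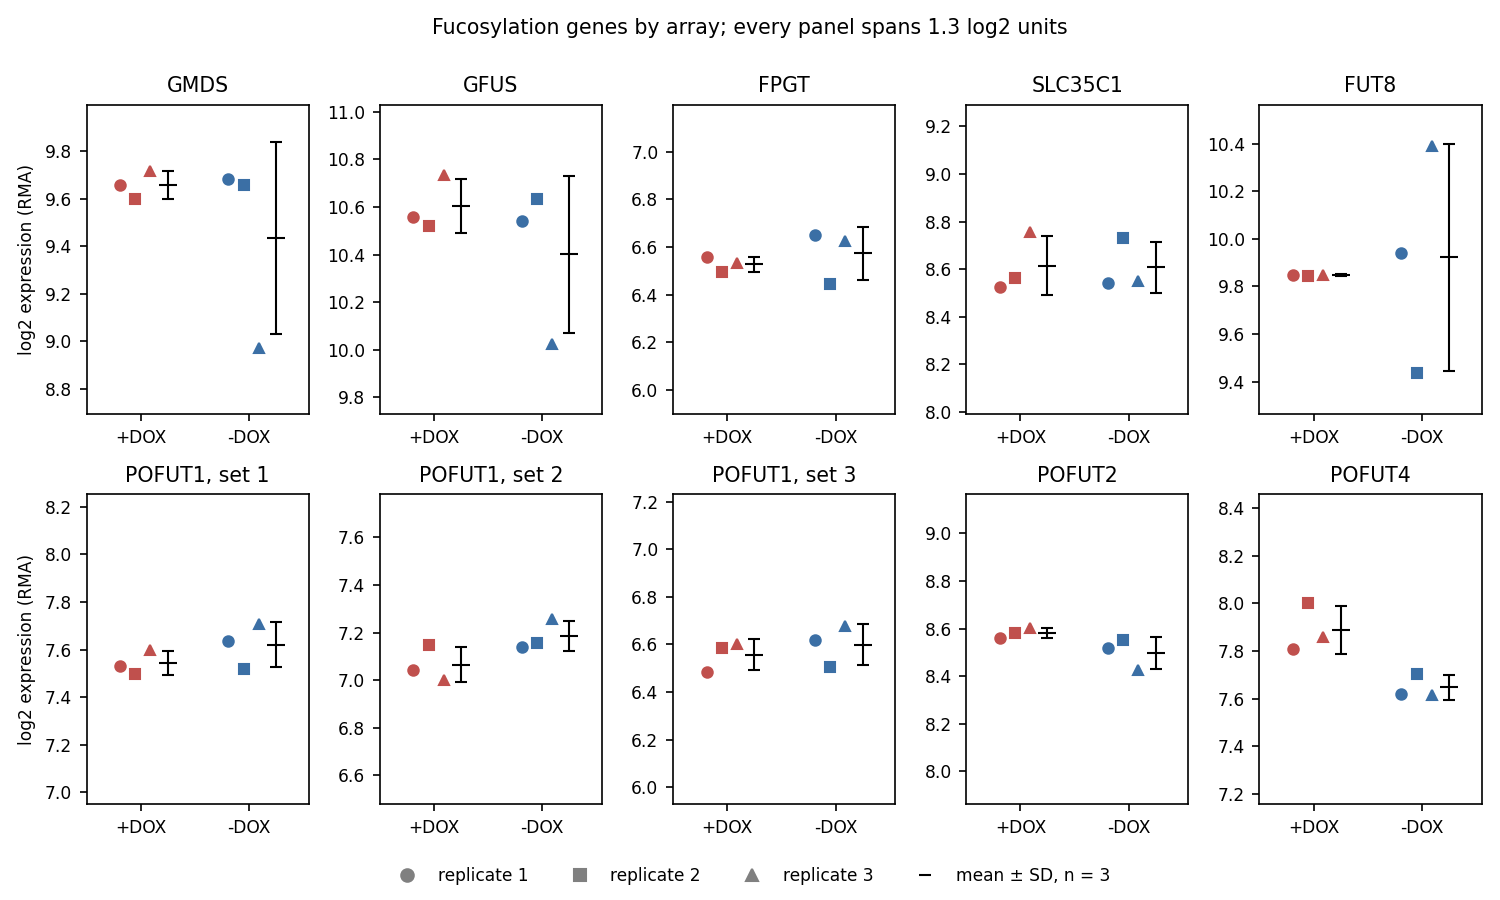
Log2 expression (RMA) of the 10 member probe sets, with +DOX arrays in red left of -DOX arrays in blue, symbols for the replicate number and black bars for the mean ± SD (n = 3). POFUT4 and POFUT2 are the panels without overlap, while -DOX replicate 3 lies far below the rest for GMDS and GFUS and above the rest for FUT8.

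GMDS, the first enzyme from GDP-mannose to GDP-fucose, was steady on 5 arrays and low on 1. It read 9.66, 9.60 and 9.72 in +DOX cells (replicates 1, 2 and 3), and 9.68, 9.66 and 8.97 in -DOX cells. Only -DOX replicate 3 was low, and the other 2 arrays of that group lay among the +DOX arrays. The means were 9.66 ± 0.06 in +DOX cells and 9.44 ± 0.40 in -DOX cells (SD, n = 3 each), a difference of 0.22 (SE 0.20; limma, adjusted p = 0.730; exact permutation p = 0.7, two-sided). Without that array the difference was -0.01, and without -DOX replicate 2 it was 0.33.

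GFUS, the enzyme that finishes GDP-fucose, showed the same single low array. It read 10.56, 10.52 and 10.73 in +DOX cells, and 10.54, 10.64 and 10.02 in -DOX cells. The groups overlapped apart from -DOX replicate 3. The means were 10.60 ± 0.11 in +DOX cells and 10.40 ± 0.33 in -DOX cells (SD, n = 3 each), a difference of 0.20 (SE 0.17; limma, adjusted p = 0.730; exact permutation p = 0.5). The difference was 0.02 without that array and 0.32 without -DOX replicate 2. The log2 value of -DOX replicate 3 minus the mean of the other 5 was -0.69 for GMDS and -0.57 for GFUS. It lay at least as far from the others for 7.23% of all probe sets in the case of GMDS, and for 11.7% in the case of GFUS.

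FPGT, the last enzyme of the salvage route, was dim. Its probe set lay under the lower quartile on all 6 arrays, at 6.56, 6.49 and 6.53 in +DOX cells and 6.65, 6.44 and 6.63 in -DOX cells. The +DOX values lay inside the range of the -DOX values, and the difference was -0.05 (95% interval -0.20 to 0.11; limma, adjusted p = 0.809). It was -0.02 without -DOX replicate 3 and -0.11 without -DOX replicate 2. How much of such a dim signal is background is unknown, since the table holds no detection calls.

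SLC35C1, the Golgi GDP-fucose transporter, had nearly the same mean in both groups. It read 8.53, 8.56 and 8.76 in +DOX cells, and 8.54, 8.73 and 8.55 in -DOX cells. The groups overlapped, and each had 1 higher array, replicate 3 in +DOX cells and replicate 2 in -DOX cells. The difference was 0.0057 (95% interval -0.21 to 0.22; limma, adjusted p = 0.992), so the values are compatible with a change of either sign within that interval. It was -0.02 without -DOX replicate 3 and 0.07 without -DOX replicate 2.

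FUT8, the core fucosyltransferase, had a wide spread in -DOX cells and a narrow one in +DOX cells. Its probe set read 9.85, 9.84 and 9.85 in +DOX cells, and 9.94, 9.44 and 10.39 in -DOX cells. The +DOX arrays lay within 0.0079 of each other, whereas the -DOX arrays spanned 0.95, with replicate 2 lowest and replicate 3 highest. Of all probe sets, 4.29% had as wide a range in -DOX cells and 0.874% had as small an SD in +DOX cells. The means were 9.85 ± 0.0045 in +DOX cells and 9.92 ± 0.48 in -DOX cells (SD, n = 3 each). The difference of -0.08 (SE 0.23; limma, adjusted p = 0.933) took the other sign without -DOX replicate 3, at 0.16, and was -0.32 without -DOX replicate 2. Over all probe sets the median SD was 0.046 in +DOX cells and 0.090 in -DOX cells, so a wider spread without doxycycline was common on the array. A difference in spread was not tested.

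Of the protein O-fucosyltransferases, POFUT4 had the smallest p of all members. It read 7.81, 8.00 and 7.86 in +DOX cells, and 7.62, 7.70 and 7.61 in -DOX cells. All 3 +DOX arrays lay above all 3 -DOX arrays, with +DOX replicate 2 the highest. The means were 7.89 ± 0.10 in +DOX cells and 7.65 ± 0.05 in -DOX cells (SD, n = 3 each), a 1.18-fold higher level with doxycycline. The difference of 0.24 (SE 0.06; 95% interval 0.09 to 0.40) did not pass (limma, adjusted p = 0.477). Over the alternative settings its adjusted p ran from 0.135 to 0.903. The exact permutation p was 0.1 (two-sided), the smallest that 3 against 3 arrays allow. Without -DOX replicate 3 the difference was 0.23 and the groups still did not overlap. On all probe sets, 22 had a smaller unadjusted p and 15.3% had a difference at least as large. The suffix of this probe set marks, by the maker's convention, probes that may be shared between transcripts.

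POFUT2, the enzyme of thrombospondin-type repeats, showed the same order of groups with a smaller gap. It read 8.56, 8.58 and 8.60 in +DOX cells, and 8.52, 8.55 and 8.42 in -DOX cells. The groups did not overlap, but the lowest +DOX array, at 8.56, and the highest -DOX array, at 8.55, were close. The difference was 0.08 (SE 0.04; limma, adjusted p = 0.692; exact permutation p = 0.1), and 0.05 without -DOX replicate 3.

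POFUT1, the enzyme that modifies Notch, had lower mean values in +DOX cells by each of its 3 probe sets, none past the threshold. The brightest set read 7.53, 7.50 and 7.60 in +DOX cells, and 7.64, 7.52 and 7.71 in -DOX cells. A set designed on its other RefSeq transcript read 7.04, 7.15 and 7.00 in +DOX cells, and 7.14, 7.16 and 7.26 in -DOX cells. In both sets the groups overlapped and -DOX replicate 3 was the highest array. The third set, dim on all 6 arrays, read 6.48, 6.59 and 6.60 in +DOX cells and 6.62, 6.50 and 6.68 in -DOX cells. The differences were -0.08, -0.12 and -0.04 (limma, adjusted p = 0.730, 0.676 and 0.809), and -0.04, -0.08 and -0.0044 without -DOX replicate 3. Without -DOX replicate 2 they were -0.13, -0.13 and -0.09. The sets measure 1 gene and are not independent, and the third carries the suffix for probes that may bind other transcripts.

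**Figure D2:**
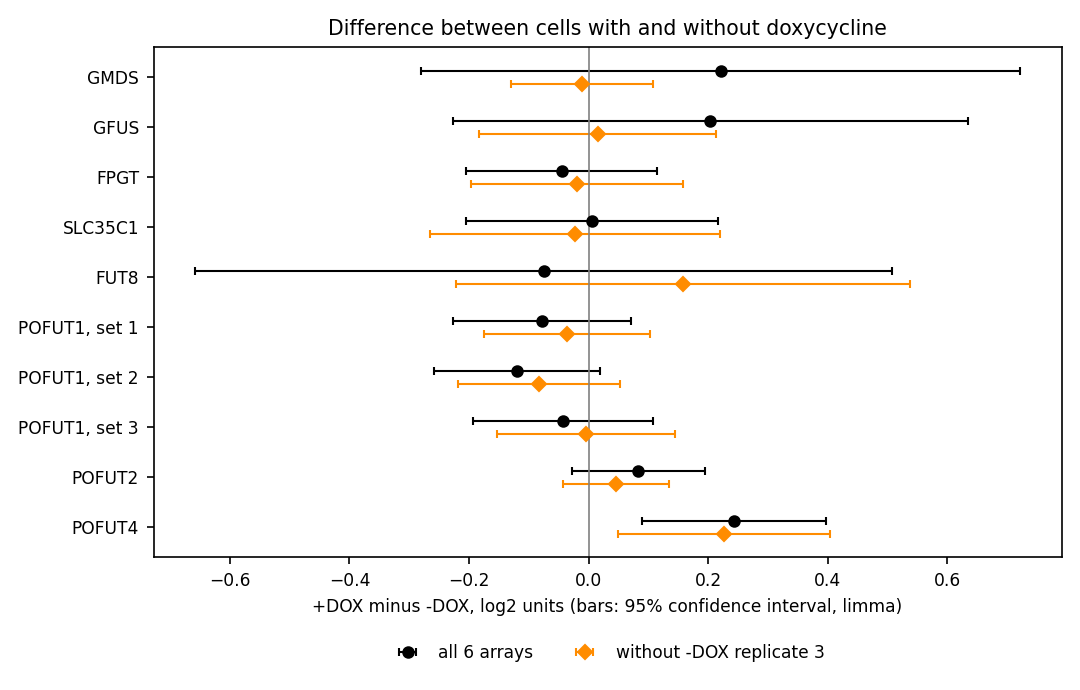
Difference in log2 units, +DOX minus -DOX, for each member probe set (points) with its unadjusted 95% confidence interval from limma (bars), over all 6 arrays (black circles) and without -DOX replicate 3 (orange diamonds). POFUT4 is the one whose interval lies above 0 in both, at 0.24 and 0.23, while GMDS, SLC35C1 and FUT8 change sign.

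The stretches upstream of the 3 measured O-fucosyltransferase genes are printed because POFUT4 and POFUT2 were the members without overlap between the groups, while POFUT1 had lower mean values with doxycycline. They are the 250 bases before the annotated start, from RefSeq (GRCh38.p14), 5′ to 3′ on the gene's strand. Capitals mark CAGAC, a site known for SMAD factors, which activin receptors act through, GGGCGG, the site known for SP1, and ACGTG, the core known for hypoxia-inducible and E-box factors, each on either strand.
POFUT4, chr10:73772026-73772275, plus strand: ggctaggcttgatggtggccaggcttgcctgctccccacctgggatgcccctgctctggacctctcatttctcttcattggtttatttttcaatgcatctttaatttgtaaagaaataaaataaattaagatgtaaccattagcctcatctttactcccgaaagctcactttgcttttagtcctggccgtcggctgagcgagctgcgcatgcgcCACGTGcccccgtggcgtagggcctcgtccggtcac
POFUT2, chr21:45287896-45288145, minus strand: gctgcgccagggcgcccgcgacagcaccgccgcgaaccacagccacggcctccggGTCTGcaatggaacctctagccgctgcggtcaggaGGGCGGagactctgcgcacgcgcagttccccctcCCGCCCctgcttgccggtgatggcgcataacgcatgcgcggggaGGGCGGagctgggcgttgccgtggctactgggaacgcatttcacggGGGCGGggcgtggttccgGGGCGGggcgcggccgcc
POFUT1, chr20:32207630-32207879, plus strand: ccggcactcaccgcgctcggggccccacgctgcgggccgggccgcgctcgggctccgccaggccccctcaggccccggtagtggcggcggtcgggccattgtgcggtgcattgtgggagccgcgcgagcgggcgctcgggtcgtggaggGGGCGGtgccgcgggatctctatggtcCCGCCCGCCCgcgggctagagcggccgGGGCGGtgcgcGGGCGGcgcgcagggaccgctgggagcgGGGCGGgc

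The stretch before POFUT4 held CACGTG once, which is 2 overlapping matches of ACGTG on opposite strands, and neither of the other motifs marked. CACGTG occurs in 6.34% and ACGTG in 18.5% of 35116 such stretches of RefSeq genes. That before POFUT2 held CAGAC once, as its reverse complement, and GGGCGG 5 times. That before POFUT1 held GGGCGG 6 times, 2 of them overlapping, and no match of the SMAD motif. Of all such stretches, CAGAC is found in 38.0% and GGGCGG in 42.6%. The palindrome GTCTAGAC, the palindromic SMAD site, occurs in 0.182% and TATAAA in 10.7%, and none of these 3 stretches held either. GC content was 51.2% before POFUT4, 74.0% before POFUT2 and 81.6% before POFUT1, beside a median of 58.0%. Member stretches on chromosome 8 were left out, and the rest covered 7 of the 8 measured members, all but GFUS. A match describes the letters alone.

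The genes whose profile over the 6 arrays was most like that of POFUT4, of 919 others, were SLC35E3, NAAA and ST6GALNAC5. Likeness was the root mean square distance after each gene's own mean was subtracted, and it was 0.05, 0.06 and 0.07 log2 units, beside a spread of 0.14 for POFUT4 about its mean. SLC35E3, of a nucleotide sugar transporter family, read 8.42, 8.57 and 8.43 in +DOX cells, and 8.25, 8.19 and 8.26 in -DOX cells. The lysosomal amidase gene NAAA differed by 0.21 and the sialyltransferase gene ST6GALNAC5 by 0.17, with groups that did not overlap and none past the threshold. For NAAA this held for its brightest probe set, while the groups overlapped in its 2 further ones. Since these genes were chosen for likeness to POFUT4 on the same arrays, their direction and lack of overlap largely follow from that choice.

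Upstream of GMDS, 5 genes that turn fructose 6-phosphate into GDP-mannose were measured of 5 listed. The isomerase MPI, the mutases PMM1 and PMM2, and GMPPB and GMPPA, the GDP-mannose pyrophosphorylase and its partner, had higher values in +DOX cells in 4 cases and lower in 1, and 0 passed. Their median difference was 0.15, which was 0.02 without -DOX replicate 3. PMM1 read 9.92, 9.77 and 9.93 in +DOX cells, and 9.72, 9.80 and 9.10 in -DOX cells. The low value was again that of -DOX replicate 3. The differences were 0.33 (SE 0.19) for PMM1, 0.17 (SE 0.12) for GMPPA and 0.15 (SE 0.12) for GMPPB, and 0.11, 0.05 and 0.02 without that array (limma, adjusted p = 0.692, 0.710 and 0.730 with all arrays). That array was the lowest of the 6 for 4 of these 5 genes and the highest for PMM2, while over all probe sets it was lowest for 35.6% and highest for 26.0%. The route from fructose 6-phosphate to GDP-fucose had 6 of its 7 measured genes lowest on the same array, as the plot along the pathway shows. Whether RNA quality or culture moved with that array was not tested.

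**Figure D3:**
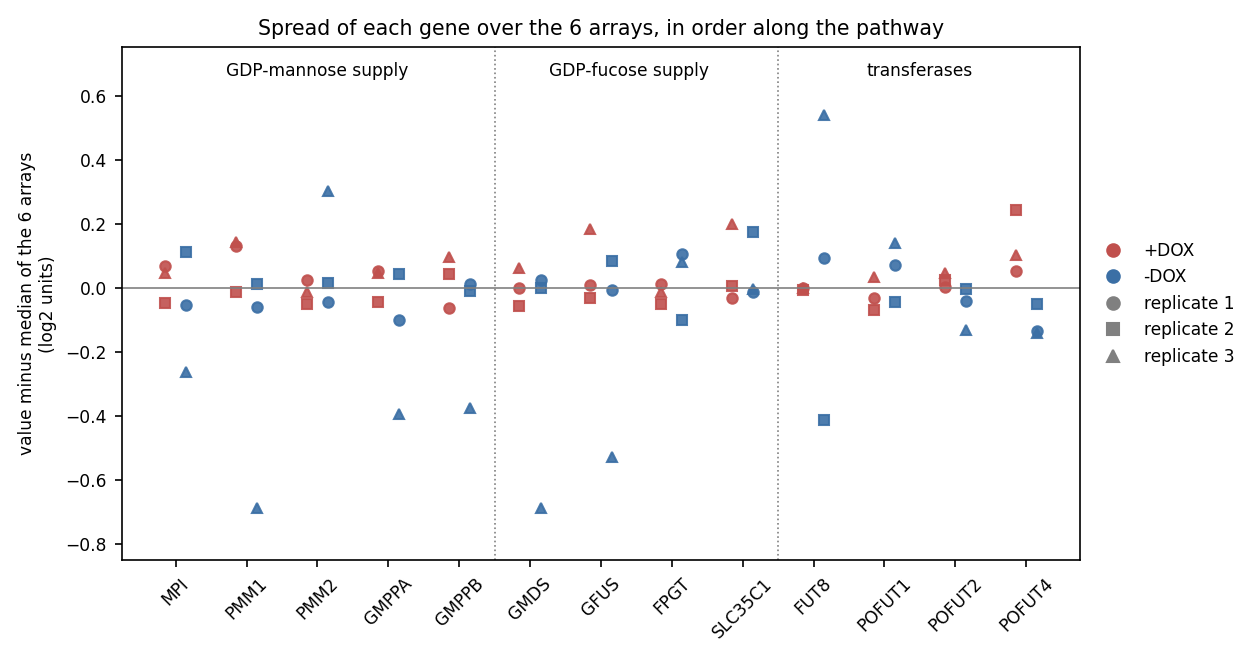
Value of each array minus the median of the 6 arrays (log2 units) for the 5 genes of GDP-mannose supply and the 8 measured members, 1 probe set per gene, with +DOX arrays in red left of -DOX arrays in blue and symbols for the replicate number. The triangle of -DOX replicate 3 lies lowest for MPI, PMM1, GMPPA, GMPPB, GMDS and GFUS, and highest for PMM2 and FUT8.

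Terminal fucosyltransferases, which build H and Lewis structures from the same GDP-fucose, had higher values in +DOX cells for 2 of 8 genes and lower for 6. Of all 927 named genes, 512 had lower values. Among the 8, 0 passed, and their median difference was -0.03. FUT3 was at -0.08 (SE 0.04), with no overlap in that probe set and overlap in its other, FUT4 at -0.27 (SE 0.12) and FUT1 at -0.18 (SE 0.11) (limma, adjusted p = 0.675, 0.675 and 0.710). Without -DOX replicate 3 all 8 had lower values, FUT4 at -0.15, with a median of -0.05. Over all probe sets 778 of 1259 had lower values without that array. FUCA1, the lysosomal fucosidase that removes fucose, was the only gene measured of 4 in other fucose handling and was at 0.02 (SE 0.08; limma, adjusted p = 0.959).

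Among enzymes that act on O-fucose or beside it, the fringes LFNG, MFNG and RFNG were measured, of 5 listed genes. LFNG, which adds GlcNAc to the fucose that POFUT1 placed, read 8.80, 8.78 and 8.87 in +DOX cells, and 8.59, 8.72 and 7.98 in -DOX cells. The groups did not overlap, and -DOX replicate 3 was far the lowest. The difference was 0.39 (SE 0.20; limma, adjusted p = 0.682), and 0.16 without that array. MFNG was at -0.12 (SE 0.05) and RFNG at -0.14 (SE 0.15), with 0 of the 3 past the threshold, and RFNG was at -0.27 without that array. A further LFNG probe set was at 0.03, with overlapping groups.

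Of proteins that carry O-fucose, 9 of 14 were measured, 1 with higher and 8 with lower values in +DOX cells, beside 512 lower of all 927 named genes. Among the 9, 0 passed, and their median difference was -0.13, which was -0.09 without -DOX replicate 3. NOTCH1 read 8.42, 8.25 and 8.46 in +DOX cells, and 8.67, 8.66 and 8.68 in -DOX cells. All +DOX arrays lay below all -DOX arrays, with a difference of -0.30 (SE 0.06; limma, adjusted p = 0.474). The ligand gene JAG2 was at -0.57 (SE 0.14), also without overlap, and JAG1 at -0.51 (SE 0.24), with overlap (limma, adjusted p = 0.477 and 0.681). JAG1 was at -0.31 without -DOX replicate 3.

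The enzymes that prepare the N-glycan which FUT8 takes, or that compete for it, were all measured. Of these 12 genes, 2 had higher and 10 lower values in +DOX cells, beside 512 lower of all 927 named genes, and 0 passed. The median difference was -0.10, which was -0.05 without -DOX replicate 3. The mannosidase genes MAN2A2 and MAN1A1 were at -0.22 (SE 0.11) and -0.40 (SE 0.24), and at -0.13 and -0.18 without that array. The branching gene MGAT5 was at -0.08 (SE 0.04). MGAT1, whose product FUT8 needs as its substrate, read 9.25, 9.07 and 9.30 in +DOX cells and 9.35, 9.34 and 9.18 in -DOX cells, with a difference of -0.08 (SE 0.08). The groups overlapped. Without -DOX replicate 3 that difference was -0.14 and the groups did not overlap, as was so for 25.0% of all probe sets without that array. Those of MGAT5 did not overlap without it either. MGAT1 was named after its values were seen.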

How the data were processed

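Expression was measured in 6 single-colour arrays of HCT116 cells. The deposited table holds log2 values that the authors made with RMA (version not stated), per the submitters' processing notes. RMA corrects background, quantile normalizes arrays and summarises probes. Trizol RNA was labelled as biotinylated cRNA, per the labels' protocols. Further steps are not given in the sources used here, and scanner files were not used.

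Probe sets were named by matching the RefSeq accession in their identifier, version dropped, to RefSeq genes (GRCh38.p14): 1043 of 1259 had a symbol. Groups came from the sample titles. The fit used limma 3.58.1 in R 4.3.3 (lmFit, eBayes, group means, two-sided, Benjamini-Hochberg over 1259 probe sets, threshold 0.05) and was tested on simulated data. The simulated data had equal spread in both groups and no outlying array. That test therefore does not cover the unequal spread or the outlying array of the real data. Exact permutation tests of 3 against 3 arrays were added. A gene with several probe sets was counted by its brightest. Precision is limited by the number of arrays. The 95% interval of a difference extended by a median of 0.152 log2 units each way.

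The members and gene lists were chosen with earlier results of these data known. Genes named were all members, up to 3 genes of each list with the smallest unadjusted p, the 3 genes most like the member with the smallest unadjusted p, and ACVR2A, TGFBR2 and AIM2. Alternatives were a replicate block, median centring, repeated quantile normalization, a filter on dim probe sets, array weights, an intensity trend and leaving out each array.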

Additional observations from a re-analysis of the deposited data

How the results depend on the processing

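Over the 6 alternative settings other than leaving out an array, 0 of 58 member differences turned and 0 members passed. Over all probe sets 0 passed in each, apart from 1 with array weights. That was GAL3ST4, no member, named after its value was seen, at -0.49 (limma, adjusted p = 0.0378). Leaving out 1 array at a time, 5 of 60 member differences turned. The difference ran from -0.012 to 0.34 for GMDS, from -0.065 to 0.067 for SLC35C1 and from -0.32 to 0.16 for FUT8. GMDS and FUT8 turned without -DOX replicate 3, and SLC35C1 without +DOX replicate 3 or without -DOX replicate 1 or 3. GFUS kept its sign but ran from 0.02 to 0.32, and FPGT from -0.11 to -0.0068. POFUT4 ran from 0.19 to 0.28 and POFUT2 from 0.05 to 0.11. The number of member probe sets without overlap ran from 2 to 6. The count of 6 came without -DOX replicate 2, where 41.4% of all probe sets did not overlap, against 21.4% to 25.0% without any other single array. POFUT4 and POFUT2 were among them in every case. Where a left-out array changed a sign, the cause was not tested.

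The labels do not say what same-numbered arrays share, so the numbers were not taken as pairs. Deviations of same-numbered arrays from their group means correlated at -0.15, -0.04 and -0.16 for replicates 1, 2 and 3. Those of differently numbered arrays correlated at -0.17 to 0.21. With 3 arrays per group these correlations cannot settle whether arrays were paired. With the replicate block 0 probe sets passed, and POFUT4 was at 0.24 (limma, adjusted p = 0.604).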
